A study of Homo sapiens with 18 samples.

Results

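The subunits of oxidative phosphorylation are made from both genomes of the cell, and 69 of the 58302 genes in the table were taken as members by name. They comprised all 13 protein genes of the mitochondrial DNA (7 of complex I, 1 of complex III, 3 of complex IV and 2 of complex V) and 56 nuclear genes (37 of complex I, 9 of complex III and 10 of complex IV). Nuclear genes of complex II and complex V were not members and were followed as separate lists. All 69 members passed the filter on low values in every comparison, so none was lost.

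Messenger RNA was sequenced in 18 libraries of human cultured cells, 3 replicates of each of 6 groups. TPC1 is a cell line from a papillary thyroid carcinoma with wild-type Dicer1, and D11 is a Dicer1 (+/-) line derived from it with CRISPR/Cas9. D11 is 1 clone, so the effect of the heterozygous genotype and that of the clone cannot be told apart. Each line had libraries from cells without transfection (NT), from cells given a control siRNA (NC) and from cells given a Dicer1 siRNA (siDicer), both siRNAs at 5 nM, and RNA was taken on day 4. Groups are those of the sample descriptions, whose names the table's columns carry, since the titles name another group for 12 of the 18 samples. In each line, 3 NT and 3 NC libraries together served as controls, to ask how gene expression responds to knockdown of Dicer1. The study used the same control group. The labels do not say whether replicates were separate cultures, so p-values measure the spread between these libraries, which may be technical.

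Oxidative phosphorylation is carried out in the inner mitochondrial membrane. Complex I takes electrons from NADH, complex III passes them from ubiquinol to cytochrome c, complex IV uses them to reduce oxygen, and complex V uses the resulting proton gradient to make ATP. Complexes I, III, IV and V are each built from mitochondrially and nuclear encoded subunits, the first being transcribed from long polycistronic precursors inside the organelle and the second imported as proteins.

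Values in the table are reads per gene scaled to 20 M reads per library (M for mega), and the depth recovered from them was 11.3 to 23.2 M reads. DICER1 itself, the target of the siRNA, was at 1496 ± 93.3 in TPC1 NT, 2253 ± 311 in TPC1 NC and 299 ± 83.5 in TPC1 siDicer (SD, n = 3 each). In D11 it was at 912 ± 251 in NT, 1459 ± 68.2 in NC and 342 ± 95.2 in siDicer (SD, n = 3 each). In each line all siDicer libraries lay below all control libraries, so DICER1 followed the descriptions, and the NT libraries lay below the NC libraries. Of 11 thyroid follicular markers, PAX8 was abundant (7361 to 14886) and TG low (32 to 124), while TSHR and SLC5A5 did not exceed 2 and NKX2-1 was at 0 in all 18 libraries. Among epithelial markers KRT8 (5715 to 13581) and KRT18 (2908 to 6564) were abundant, whereas EPCAM did not exceed 6. Of 7 stromal, endothelial and blood markers, PECAM1, VWF, CDH5, PTPRC and CD3E did not exceed 12, CD68 was at 763 to 1960 and PDGFRB at 12 to 167. D11 NT replicate 1 stood apart from the other libraries in the nuclear members, as described below, and its value for FN1 (fibronectin) was 76834, against 108805 to 220774 in the other 17 libraries.

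Levels were compared between genes per kilobase of the canonical transcript, as the mean over the 12 control libraries. The 13 mitochondrially encoded genes ranged from 18920 (MT-ND3, complex I) to 62158 (MT-ATP8, complex V) with a median of 49315, and the 56 nuclear genes from 118 (NDUFA5) to 6820 (COX4I1) with a median of 1516. The groups did not overlap. Among nuclear members the median was 1442 in complex I, 1382 in complex III and 3782 in complex IV. The lowest and highest levels per kilobase were those of NDUFA5 (118 ± 12.6, SD, n = 12) and NDUFB9 (4845 ± 749) in complex I, UQCRB (526 ± 54.3) and UQCRH (5095 ± 669) in complex III, and COX7B (667 ± 87.2) and COX4I1 (6820 ± 839) in complex IV. NDUFA5, NDUFV3, NDUFA9 and NDUFS1, the 4 lowest, have canonical transcripts of 5496 to 11660 bases, and the level per kilobase depends on the annotated length.

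**Figure D1:**
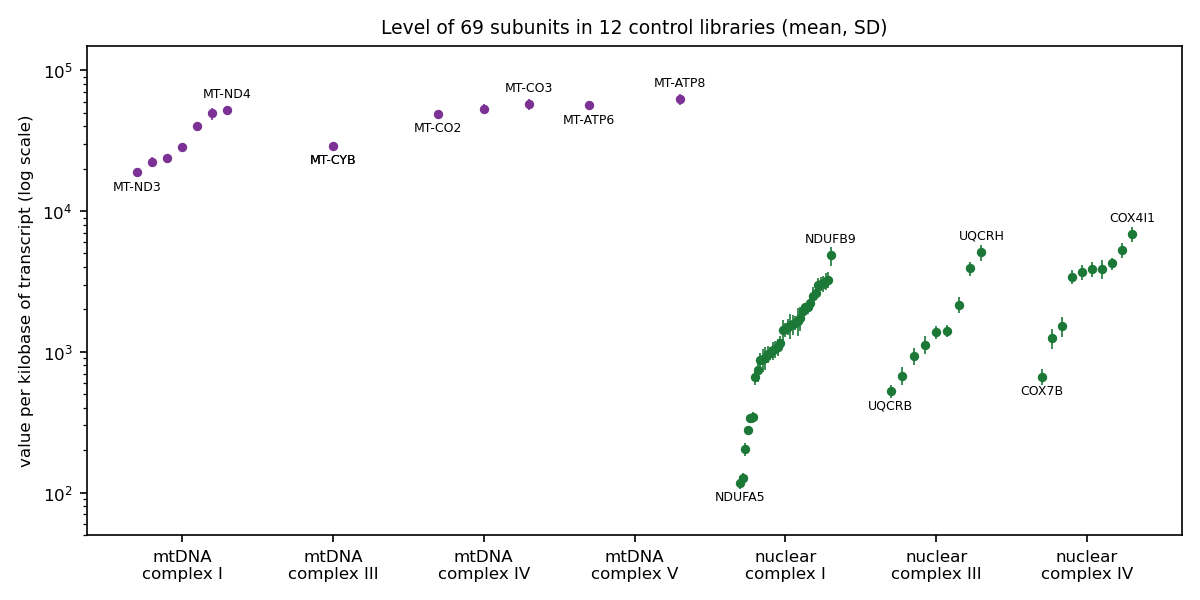
Level of each of the 69 subunits, as the value per kilobase of transcript on a log scale (y axis), by genome and complex (x axis); points are means over 12 control libraries and bars the SD. The mitochondrially encoded genes (18920 to 62158) all lie above the nuclear genes (118 to 6820).

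The order within the mitochondrial genome was MT-ATP8, MT-CO3, MT-ATP6, MT-CO1, MT-ND4, MT-ND4L, MT-CO2, MT-ND1, MT-CYB, MT-ND2, MT-ND6, MT-ND5 and MT-ND3. From MT-ATP8 (62158 ± 5199) down to MT-CO2 (49315 ± 3314) each gene lay within 1 SD of its neighbour, and MT-ND1 followed at 39915 ± 3023. MT-CYB (29199 ± 1930) and MT-ND2 (28681 ± 1722) also lay within 1 SD of each other, as did MT-ND6 (23651 ± 1619) and MT-ND5 (22416 ± 1851). MT-ND6 is the only one of the 13 on the minus strand of the mitochondrial DNA.

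Genes that overlap can share reads, and in the mitochondrial DNA 3 pairs of members overlap. The longer 2 are shown because reads from the shared bases cannot be assigned to one gene. MT-ATP8 and MT-ATP6 share 46 bases, at chrM:8527-8572 of GRCh38 on the plus strand, printed from the start codon of MT-ATP6 to the stop codon of MT-ATP8, both in capitals. MT-ND4L and MT-ND4 share 7 bases, in capitals, within chrM:10748-10778. MT-ATP6 and MT-CO3 share 1 base.
MT-ATP8 and MT-ATP6: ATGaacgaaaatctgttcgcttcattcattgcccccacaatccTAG
MT-ND4L and MT-ND4: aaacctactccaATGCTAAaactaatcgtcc
Over 18 libraries the ratio of MT-ATP8 to MT-ATP6 values was 0.334 ± 0.00653 (SD) and that of MT-ND4L to MT-ND4 0.205 ± 0.00876. The lowest MT-ND4L to MT-ND4 ratio, 0.173, was that of D11 NT replicate 1. How the counting treated reads over these overlaps is not stated in the sources used here, nor is its strand setting, which also touches MT-ND6 (14149 to 14673, minus strand), next to MT-ND5.

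Nuclear copies of mitochondrial genes can take reads from their parents too. Copies named after MT-ATP6 summed to 8.33% of the parent's mean value, those of MT-ND2 to 2.91%, and those of the other 11 mitochondrial members to less. Copies named after 29 nuclear members summed to at most 2.41% of the parent's value, in NDUFV2. Only names made of the parent's name, P and a number were searched, so UQCRHL was not among them. It was at 430 to 729 in the 18 libraries. Its mean in TPC1 controls was 536, against 2654 for UQCRH, and sharing of reads between them was not tested. In addition, 33 of the 56 nuclear members overlap another annotated gene in position.

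The summed mitochondrially encoded level was 2.06% to 2.58% of all values in the 18 libraries. In TPC1 it was 2.27% ± 0.154 (SD, n = 6) in controls and 2.11%, 2.49% and 2.21% in siDicer replicates 1 to 3. In D11 it was 2.33% ± 0.133 (SD, n = 6) in controls and 2.53%, 2.58% and 2.40% in siDicer. The siDicer libraries overlapped the controls in both lines.

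The summed nuclear level was 0.475% ± 0.0107 (SD, n = 6) of all values in TPC1 controls and 0.426%, 0.451% and 0.431% in siDicer replicates 1 to 3, each below the lowest control library (0.458%). In D11 controls it was 0.507% ± 0.0730 (SD, n = 6), from 0.449% to 0.647%, and in siDicer 0.457%, 0.419% and 0.430%, with replicate 1 inside the control range. The highest D11 control value was that of NT replicate 1, and the other 5 D11 controls were at 0.479% ± 0.0271. These are shares of bulk RNA, in which a smaller number of cells of a kind and less RNA per cell cannot be told apart.

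The ratio of the mitochondrial to the nuclear sum was 4.78 ± 0.317 (SD, n = 6) in TPC1 controls and 4.96, 5.54 and 5.14 in siDicer. In D11 it was 4.68 ± 0.801 (SD, n = 6) in controls, 3.31 in NT replicate 1 and 4.34 to 5.66 in the other 5, against 5.53, 6.16 and 5.58 in siDicer. The siDicer libraries were in the upper part of the control range or above it in both lines, with overlap in both.

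**Figure D2:**
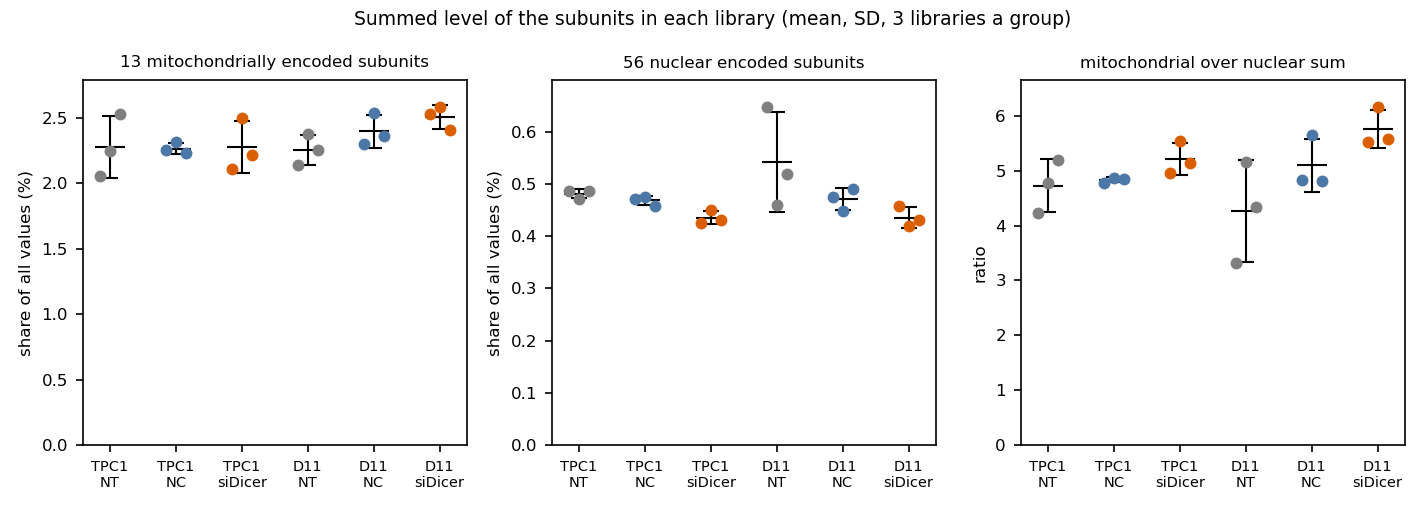
Summed level of the 13 mitochondrially encoded subunits and of the 56 nuclear subunits as a share of all values (%), and the ratio of the sums, per library (points) with group mean and SD (bars, n = 3), for TPC1 and D11 under NT, NC and siDicer. The nuclear share of the 3 TPC1 siDicer libraries (0.426% to 0.451%) lies below all TPC1 controls, and D11 NT replicate 1 is the highest library at 0.647%.

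After siDicer no member was called in TPC1 or in D11, where a call needed a fold change of 1.5 or more together with an adjusted p under 0.05 (limma). Without the fold minimum, 10 nuclear members passed the test in TPC1 and 7 in D11, and each of these was lower in siDicer. No mitochondrially encoded member passed in either line, and none of either genome passed as higher. In both lines 5 members passed, namely NDUFV2 and NDUFA8 of complex I, UQCRFS1 of complex III, and COX8A and COX7A2 of complex IV. The share of all genes that passed in both lines was not compared.

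The counts stand against the whole table. In TPC1, 7.38% of 18475 genes were called, and 7.94% passed as lower without the fold minimum, against 10 of 56 nuclear and 0 of 13 mitochondrial members. In D11, 12% of 18413 genes were called, and 12.8% passed as lower, against 7 of 56 and 0 of 13. At an unadjusted p under 0.05 there were 19 of 69 members (27.5%) in TPC1, where 30.5% of all genes tested were, and 21 of 69 (30.4%) in D11, where 35.5% were. With the replicate number as a block there were 19 of 69 in TPC1, against 36.1% of all genes, and 24 of 69 (34.8%) in D11, against 39.5%. The method voom on recovered reads also called 0 members in each line, with 10 and 7 passing as lower.

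Single libraries weighed on these counts. In TPC1 the count of 10 was 0 without siDicer replicate 1 or 3, 4 without NT replicate 1 or 3, 5 without NC replicate 1, 6 without NC replicate 2 or 3, and 14 without NT replicate 2. In D11 the count of 7 was 2 without siDicer replicate 2, 1 without siDicer replicate 3, and 9 without NT replicate 1. The share of all genes that passed as lower in the same fits was not compared. Whether the members moved more than the whole table therefore cannot be read from these counts.

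The median log2 change of the 56 nuclear members was -0.11 in TPC1 and -0.21 in D11, where the median of all genes tested was -0.04 in both. The change was negative for 43 nuclear members in TPC1 and for 51 in D11, 43 of them in both lines. For the 13 mitochondrially encoded members the median was -0.03 in TPC1, with 8 negative, and 0.12 in D11, with 12 positive. The mitochondrial median in TPC1 changed sign with the scaling, to 0.0028 with TMM and 0.0082 with RLE factors, while the nuclear medians stayed negative and the mitochondrial median in D11 positive under both. Without D11 NT replicate 1 the nuclear median in D11 was -0.14, with 45 of 56 negative, and the mitochondrial median 0.09, with 12 of 13 positive.

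By complex, the nuclear median in TPC1 was -0.11 in complex I (27 of 37 negative), -0.16 in complex III (8 of 9) and -0.15 in complex IV (8 of 10). In D11 it was -0.21 in complex I (32 of 37 negative), -0.20 in complex III (9 of 9) and -0.25 in complex IV (10 of 10). Members that passed the test as lower in TPC1 numbered 5 in complex I, 3 in complex III and 2 in complex IV, and in D11 4, 1 and 2. The spread of single members within each complex, -0.45 to 0.16 in TPC1 complex I for example, was wider than the difference between the complexes.

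**Figure D3:**
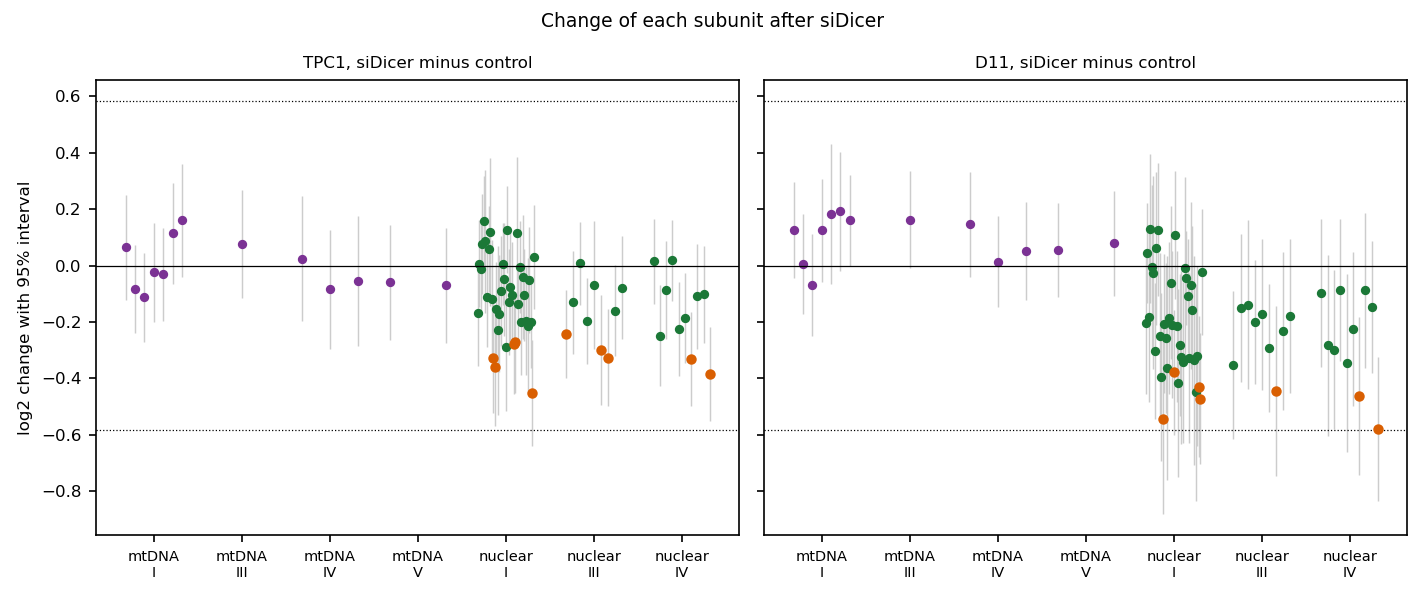
Log2 change of each subunit after siDicer (y axis) with its 95% interval (bars), by genome and complex (x axis), in TPC1 and D11; orange points passed at an adjusted p under 0.05 and dotted lines mark a fold change of 1.5. Orange points (10 in TPC1, 7 in D11) are all nuclear and below 0, and no mitochondrially encoded gene passed.

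NDUFV2, an iron-sulfur subunit of the NADH-oxidising arm of complex I (chr18:9102630-9134345), was at 1271, 1568 and 1265 in TPC1 siDicer replicates 1 to 3. The 6 TPC1 control libraries ranged from 1801 to 1933 with a median of 1860. All siDicer libraries lay below all controls, a fall by 0.45 ± 0.0852 (SE) on the log2 scale, or -26.9% (limma, adjusted p = 0.00792). D11 siDicer libraries were at 1447, 1435 and 1305 against 1673, 1931 and 2367 (lowest, median and highest control). The groups again did not overlap, with a log2 change of -0.47 ± 0.108 (limma, adjusted p = 0.00832).

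NDUFA8, an accessory complex I subunit of the membrane arm (chr9:122144058-122159779), was at 619, 754 and 643 in TPC1 siDicer and at 803 to 945 in controls, with a median of 831. In D11 siDicer it was at 717, 507 and 575, and in controls at 699 to 1172 with a median of 850. The siDicer and control groups did not overlap in TPC1, and in D11 siDicer replicate 1 lay above the lowest control. Within the TPC1 controls NC (803 to 828) lay below NT (834 to 945). Part of the TPC1 change against pooled controls therefore lies between NT and NC. The log2 change was -0.36 ± 0.0959 in TPC1 (limma, adjusted p = 0.0312) and -0.55 ± 0.156 in D11 (adjusted p = 0.0252). The TPC1 adjusted p was 0.0508 with RLE scaling, and NDUFA8 passed there in 4 of the 9 fits that each left out 1 library. In D11 its adjusted p was 0.0046 with the replicate number as a block (limma).

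UQCRFS1, the Rieske iron-sulfur protein of complex III (chr19:29205320-29213151), was at 1503, 1666 and 1561 in TPC1 siDicer against 1812 to 2168 in controls, with a median of 1969.5. D11 siDicer libraries were at 1761, 1575 and 1462 against 1750 to 2943 in controls, with a median of 2135.5. The TPC1 groups did not overlap, while D11 siDicer replicate 1 lay just above the lowest control. The log2 change was -0.33 ± 0.0781 in TPC1 (limma, adjusted p = 0.0204) and -0.44 ± 0.139 in D11 (adjusted p = 0.0370). The D11 adjusted p was 0.0596 with TMM and 0.0601 with RLE scaling, and UQCRFS1 passed there in 3 of the 9 fits that each left out 1 library. With the replicate number as a block the D11 adjusted p was 0.0111 (limma).

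COX8A, a small membrane subunit of complex IV (chr11:63974620-63976543), was at 1805, 2068 and 1820 in TPC1 siDicer and at 2327 to 2571 in controls, with a median of 2509.5. In D11 siDicer it was at 1802, 1849 and 1782, and in controls at 2369 to 3513 with a median of 2581. The siDicer and control groups did not overlap in either line. Within the controls NC lay below NT in both lines. In TPC1 NC was at 2327 to 2504 and NT at 2515 to 2571, and in D11 NC was at 2369 to 2533 and NT at 2629 to 3513. Part of the change against pooled controls therefore lies between NT and NC. The log2 change was -0.38 ± 0.0758 in TPC1 (limma, adjusted p = 0.0096) and -0.58 ± 0.118, or -33.1%, in D11 (adjusted p = 0.00459). The D11 change lay just inside the fold minimum, and COX8A was called when any one of D11 NT replicate 2, NC replicates 1 to 3 or siDicer replicate 2 was left out. It was the only member to pass in D11 in all 9 fits with a library left out.

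COX7A2, another small subunit of complex IV (chr6:75237675-75250323), was at 1254, 1394 and 1359 in TPC1 siDicer and 1361, 1211 and 1198 in D11 siDicer. Controls ranged from 1575 to 1793 in TPC1 and from 1504 to 2311 in D11. Groups did not overlap in either line, and the log2 change was -0.33 ± 0.0755 in TPC1 (limma, adjusted p = 0.0166) and -0.46 ± 0.130 in D11 (adjusted p = 0.0231).

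Another 7 members passed in 1 line. In TPC1 they were CYC1, the cytochrome subunit of complex III (log2 change -0.24, adjusted p = 0.0448), UQCRC2, a core protein of complex III (-0.30, adjusted p = 0.0469), and the accessory complex I subunits NDUFA7 (-0.33, adjusted p = 0.0333), NDUFB9 (-0.28, adjusted p = 0.0427) and NDUFC1 (-0.27, adjusted p = 0.0488). In D11 they were NDUFV1, which binds NADH in complex I (-0.43, adjusted p = 0.0188), and NDUFB4, an accessory subunit (-0.38, adjusted p = 0.0191), all by limma. Their log2 changes in the other line were -0.35 for CYC1, -0.29 for UQCRC2, -0.40 for NDUFA7, -0.33 for NDUFB9 and -0.34 for NDUFC1 in D11, and -0.20 for NDUFV1 and -0.29 for NDUFB4 in TPC1. With the replicate number as a block, CYC1, NDUFA7 and UQCRC2 passed in D11 as well. In TPC1, CYC1 (adjusted p = 0.0803), UQCRC2 (0.0643), NDUFB9 (0.0757) and NDUFC1 (0.0806) did not pass by limma with TMM scaling, nor with RLE scaling. Of the 9 TPC1 fits that each left out 1 library, UQCRC2 passed in 3, NDUFA7 and NDUFB9 in 2 each, and CYC1 and NDUFC1 in 1 each. The pooled TPC1 controls differed for UQCRC2, at 2757 to 3044 in NT, 2461 to 2754 in NC and 2207 to 2254 in siDicer. NDUFB9 was likewise at 3230 to 3554, 2893 to 3122 and 2576 to 2723. Part of their change against pooled controls therefore lies between NT and NC. NT and NC overlapped for CYC1, NDUFA7 and NDUFC1.

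**Figure D4:**
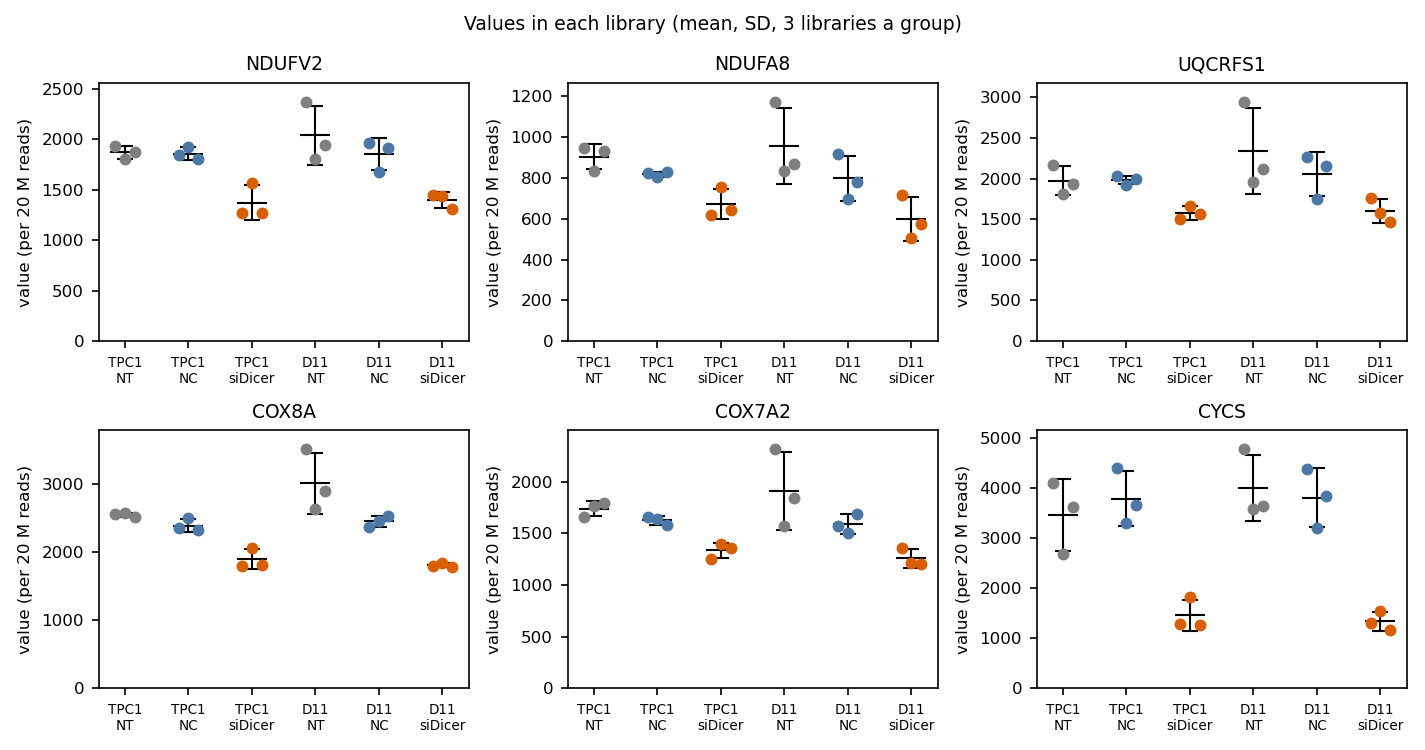
Value per library (points, scaled to 20 M reads, y axis from 0) of the 5 subunits that passed the test in both lines and of CYCS, cytochrome c, which is no member, with group mean and SD (n = 3). For COX8A all siDicer libraries (1782 to 2068) lie below all controls (2327 to 3513), and CYCS shows the widest gap, 1168 to 1819 against 2689 to 4778.

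Without regard to the test, 19 nuclear members had all TPC1 siDicer libraries below all controls, where 9.91% of all genes did, and 1 (NDUFA13) had all above, where 7.62% of all genes did. In D11, 12 nuclear members lay below, where 14.1% of all genes did, and 1 mitochondrial member, MT-ND6, lay above, where 11% did. NDUFA3, NDUFA7, NDUFC1, NDUFS3, NDUFV1, NDUFV2, CYC1, COX7A2 and COX8A lay below in both lines. The share of all genes that lay below in both lines was not compared. Leaving D11 NT replicate 1 out left the D11 count below at 12.

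Among the nuclear members with the highest log2 change in TPC1 were NDUFA13 (0.16), NDUFB5 (0.13), NDUFA5 (0.12), NDUFC2 (0.12) and NDUFA2 (0.09), and in D11 NDUFA12 (0.13), NDUFA5 (0.13), NDUFB5 (0.11), NDUFA4 (0.06) and NDUFA10 (0.04). All belong to complex I by name, and none passed the test. NDUFA13 was at 1720, 1725 and 1658 in TPC1 siDicer and at 1446 to 1637 in controls (limma, adjusted p = 0.163). Its D11 libraries overlapped, at 1776, 1437 and 1705 against 1452 to 2229. NDUFS7, a core complex I subunit with an iron-sulfur cluster, was among the 5 lowest in D11 (log2 change -0.45 ± 0.178), at 409, 626 and 604 against 574 to 1010, and did not pass (adjusted p = 0.0886).

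NDUFA4 is named as a complex I subunit but its product is now assigned to complex IV. It was at 2341, 2285 and 2311 in TPC1 siDicer, inside the control range of 2061 to 2391. The D11 values of 2880, 2388 and 2383 lay inside the range of 2073 to 3110. Its log2 change was 0.06 in both lines (limma, adjusted p = 0.613 in TPC1 and 0.768 in D11), where the median of the 10 nuclear members named for complex IV was -0.15 in TPC1 and -0.25 in D11.

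Among mitochondrially encoded subunits of complex I, which form its proton-pumping membrane arm, MT-ND6 had the highest change in TPC1. It was at 12189, 14956 and 13007 in TPC1 siDicer and at 10772 to 13230 in controls, and at 13836, 15455 and 13922 in D11 siDicer and 12441 to 13387 in controls. TPC1 groups overlapped and D11 groups did not. The log2 change was 0.16 ± 0.0916 in TPC1 (limma, adjusted p = 0.265) and 0.16 ± 0.0743 in D11 (adjusted p = 0.141). With GC content and length trends removed it was 0.25 in D11 and passed (adjusted p = 0.0218, limma), the only mitochondrial member to pass under any setting run in either line.

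MT-ND5 had the highest change in D11, 0.19 ± 0.0975, with 45301, 49929 and 44663 in siDicer against 33994 to 46174 in controls (limma, adjusted p = 0.177). MT-ND3 was the only mitochondrial member with a negative change in D11 (-0.07), and the lowest in TPC1 (-0.11). The other complex I members MT-ND1, MT-ND2, MT-ND4 and MT-ND4L changed by 0.06, -0.08, -0.02 and -0.03 in TPC1 and by 0.13, 0.01, 0.12 and 0.18 in D11. None passed, and the siDicer libraries of each overlapped the controls.

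MT-CYB, the mitochondrially encoded subunit of complex III, changed by 0.08 ± 0.0865 in TPC1 and 0.16 ± 0.0794 in D11. The catalytic core of complex IV is encoded by MT-CO1, MT-CO2 and MT-CO3, with log2 changes of 0.02, -0.08 and -0.05 in TPC1 and 0.15, 0.01 and 0.05 in D11. For the complex V members MT-ATP6 and MT-ATP8 they were -0.06 and -0.07 in TPC1 and 0.06 and 0.08 in D11. For all 13 mitochondrial members the 95% interval lay inside a 1.5-fold change either way in both lines. The same held for 55 nuclear members in TPC1 and 37 in D11.

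Promoters are shown for NDUFA8 and COX8A, the members that passed in both lines whose promoter held a searched motif other than GGGCGG, from RefSeq on GRCh38.p14. The window is 250 bases before to 50 after the start, 5′ to 3′ on the gene's strand. For NDUFA8 it is chr9:122159730-122160029 on the minus strand, with a motif of nuclear respiratory factor 1 on both strands in capitals. For COX8A it is chr11:63974370-63974669 on the plus strand, with an ETS motif, as bound by GABP, on the reverse strand in capitals.
NDUFA8: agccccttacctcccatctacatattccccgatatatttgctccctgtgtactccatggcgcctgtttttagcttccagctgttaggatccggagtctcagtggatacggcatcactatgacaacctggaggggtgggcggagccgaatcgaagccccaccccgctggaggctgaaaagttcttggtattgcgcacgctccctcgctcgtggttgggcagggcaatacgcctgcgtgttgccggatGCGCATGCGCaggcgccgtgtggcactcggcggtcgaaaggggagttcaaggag
COX8A: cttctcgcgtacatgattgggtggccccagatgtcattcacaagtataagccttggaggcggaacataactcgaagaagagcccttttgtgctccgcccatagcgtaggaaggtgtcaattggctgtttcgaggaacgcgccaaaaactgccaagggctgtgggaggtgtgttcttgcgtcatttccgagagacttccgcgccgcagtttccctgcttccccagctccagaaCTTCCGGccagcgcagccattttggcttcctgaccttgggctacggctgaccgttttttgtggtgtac
RefSeq promoters were matched for 47 of the 56 nuclear members. The motif GCGCATGCG was found on either strand in 5 of the 47, COX6A1, NDUFA8, NDUFB4, NDUFS6 and NDUFS7, and in 2.1% of all 27305 promoters. CCGGAAG was found in 13 members and in 10.7% of all promoters, and AAGATGGCG, a motif of YY1, in 6 members and 1.85% of all promoters. GGGCGG was found in 29 members and 44.6% of all promoters. Of the 12 members that passed in either line, 10 were matched, and of these 2 held GCGCATGCG (NDUFA8 and NDUFB4), 1 held CCGGAAG (COX8A), 1 held AAGATGGCG (NDUFA7) and 6 held GGGCGG. A match describes the letters of these windows only.

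Genes around the pathway were read from lists written with earlier results of these data known. The list counts stand against 7.94% of all genes tested that passed as lower in TPC1 and 12.8% in D11. Called in either direction were 7.38% and 12%. Cytochrome c, encoded by CYCS, carries electrons from complex III to complex IV and was outside the rule for members. It was at 1286, 1819 and 1267 in TPC1 siDicer against 2689 to 4398 in controls, and at 1299, 1550 and 1168 in D11 siDicer against 3208 to 4778. Groups were far apart in both lines, with a log2 change of -1.32 ± 0.160 in TPC1 (limma, adjusted p = 0.00108) and -1.54 ± 0.130 in D11 (adjusted p = 4.57e-05), and it was called in both. Of the 11 isoforms and subunits outside the rule, 5 were tested in TPC1 and 6 in D11, and NDUFAB1, the acyl carrier protein of complex I, also passed as lower (-0.36 and -0.53).

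Of 4 complex II genes, 1 passed as lower in TPC1 (SDHB, log2 change -0.33) and 0 in D11, with medians of -0.17 and -0.19. Of 17 nuclear complex V genes, 1 passed as lower in TPC1 (ATP5O, -0.23) and 0 in D11, with medians of -0.13 and -0.24, and 16 and 17 of them negative. All genes tested had a median of -0.04 in both lines.

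Of 44 assembly factors for these complexes, 14 passed as lower in TPC1 (5 of them called) and 17 in D11 (7 called), and 0 passed as higher. COA4, an assembly factor of complex IV, was at 326, 443 and 309 in TPC1 siDicer against 763 to 1032 in controls, and at 317, 396 and 373 in D11 siDicer against 917 to 1445. Its groups did not overlap, and its log2 change was -1.40 in TPC1 (limma, adjusted p = 0.000503) and -1.53 in D11 (adjusted p = 8.53e-05). NDUFAF1, an assembly factor of complex I, changed by -0.59 and -0.76, UQCC3, of complex III, by -0.66 and -1.01, and CMC1, of complex IV, by -0.59 and -0.66 in TPC1 and D11, and all were called in both lines.

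Of 38 genes of mitochondrial RNA machinery and biogenesis, 37 were tested, with 2 lower in TPC1 (1 called) and 7 lower and 1 higher in D11 (3 called). TFAM, which packages mitochondrial DNA and starts its transcription, was at 1659, 1789 and 1600 in TPC1 siDicer against 2213 to 3078 in controls, and at 1994, 1962 and 1516 in D11 siDicer against 2625 to 3457. Groups did not overlap, with log2 changes of -0.62 ± 0.116 in TPC1 (limma, adjusted p = 0.00763) and -0.64 ± 0.116 in D11 (adjusted p = 0.00254). In D11 MTERF3 (-0.61) and MTERF1 (-0.63), factors of the mitochondrial transcription termination family, were also called. PPARGC1B, a coactivator of the nuclear genes of mitochondria, was the 1 gene that passed as higher (0.57 in D11, not called). NRF1, nuclear respiratory factor 1, passed as lower in D11 (-0.46, adjusted p = 0.00641, limma).

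Of the 2 ribosomal RNAs encoded in mitochondrial DNA, MT-RNR1 was at 11598, 9916 and 11051 in TPC1 siDicer against 8101 to 9924 in controls. Its D11 siDicer values were 15066, 10803 and 11041 against 8106 to 11336. The lowest TPC1 siDicer library and the lower 2 of D11 lay inside the control range. MT-RNR2 was at 67054, 69246 and 66228 in TPC1 siDicer, inside the control range of 59689 to 71178. Its D11 siDicer values of 85036, 74295 and 70405 lay above all D11 controls (63118 to 69986), where 11% of all genes did. The log2 change of MT-RNR1 passed in TPC1 (0.28, limma, adjusted p = 0.0481), and neither ribosomal RNA passed in D11, where the list median was 0.28. Libraries were poly-A selected, so these values depend on the tails of the ribosomal RNAs.

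Of 78 mitochondrial ribosomal protein genes, 17 passed as lower in TPC1 (3 called, MRPS2, MRPS33 and MRPS17) and 30 in D11 (10 called), with medians of -0.20 and -0.31. Of 81 cytosolic ribosomal protein genes tested, 2 passed as lower in TPC1 and 3 in D11 (1 called, RPL26L1), with medians of -0.10 and -0.11. Of 23 glycolysis genes, 1 passed in TPC1 (PGAM1, log2 change -0.69, called) and 7 in D11 (2 called, PGAM1 at -0.71 and ALDOC at -1.56), each lower, with medians of -0.22 and -0.28.

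Marker lists of cell types overlapped between siDicer and control in their summed level, except the epithelial list in D11, at 12283 to 14110 in siDicer and 14535 to 20467 in controls. In D11, 3 of the 6 epithelial markers were tested and 1 passed, KRT18 (-0.39). Of the 11 thyroid markers 4 were tested there, and HHEX was called lower (-0.63). In TPC1, KRT7 of the epithelial list, with 3 tested, was called higher (0.82). Of the 7 stromal, endothelial and blood markers, 2 were tested in each line, and PDGFRB was called higher in both. It went from 27.0 ± 13.2 (SD, n = 6) to 111 ± 72.0 (SD, n = 3) in TPC1 and from 28.7 ± 10.4 to 86.7 ± 25.0 in D11, while CD3E was at 0 in all libraries. The part of these markers in the values of the members was not tested.

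**Figure D5:**
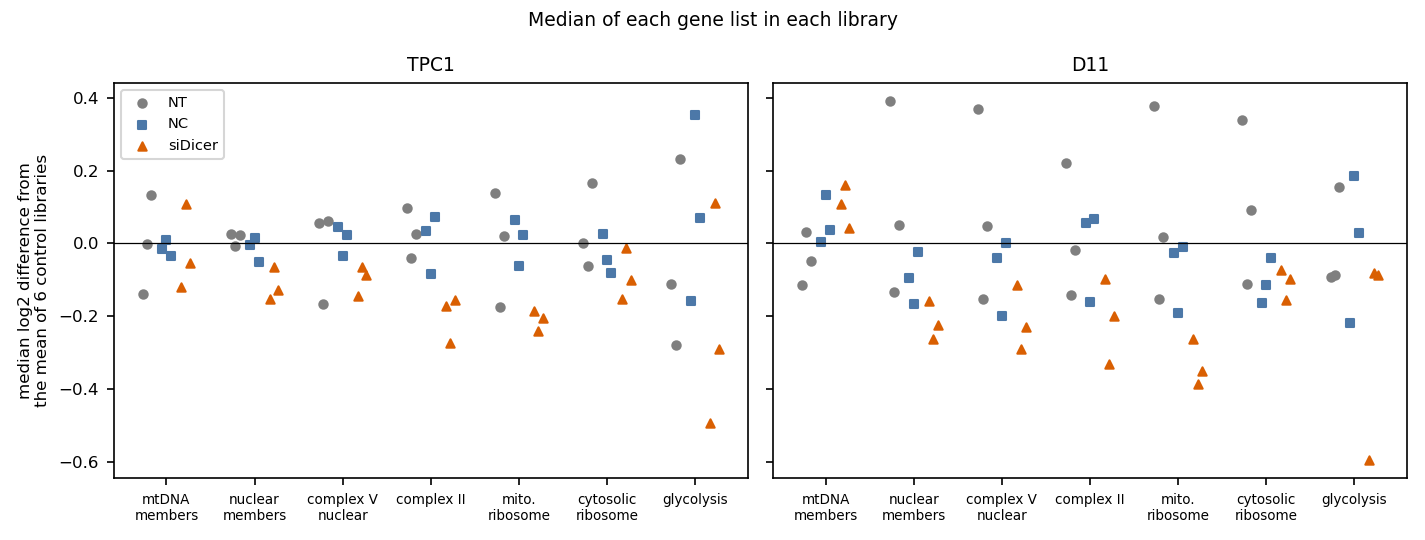
Median log2 difference of each gene list from the mean of the 6 control libraries of the same line (y axis), per library, for TPC1 and D11; circles are NT, squares NC and triangles siDicer. D11 NT replicate 1 is the highest circle for nuclear members (0.39) and for the mitochondrial ribosome (0.38) and lies below 0 for the mitochondrially encoded members (-0.11).

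The NC and NT groups, which differ by transfection of the negative control siRNA, were compared within each line. No member was called in TPC1, where 0.111% of 18008 genes were called, or in D11, where 0.35% of 17992 were. At an unadjusted p under 0.05 there were 2 of 69 members (2.9%) in TPC1 and 5 of 69 (7.25%) in D11, against 11.1% and 13.6% of all genes tested, and voom called 0 members in each. With the replicate number as a block there were 12 members in D11 at an unadjusted p under 0.05, against 19.1% of all genes, and 0 called, while the genes called rose from 63 to 315. In TPC1 the block gave 4 members, against 21.3% of all genes, and 0 called, while the genes called rose from 20 to 565. The nuclear median was -0.02 in TPC1 and -0.19 in D11, with 54 of 56 negative in D11, and the mitochondrial median was -0.0015 and 0.09. Without D11 NT replicate 1 the D11 nuclear median was -0.04, with 38 of 56 negative.

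The lowest 3 nuclear members were UQCRC1 (-0.28), NDUFA2 (-0.27) and NDUFA5 (-0.27) in TPC1, and NDUFB10 (-0.48), NDUFA2 (-0.38) and UQCRC1 (-0.36) in D11. The highest 3 were NDUFC2 (0.16), UQCRQ (0.12) and UQCR10 (0.11) in TPC1, and NDUFS1 (0.0060), NDUFA10 (0.0033) and NDUFC2 (-0.03) in D11. NDUFB10 was at 1874, 1121 and 1220 in D11 NT replicates 1 to 3 and at 1028, 895 and 1021 in NC, so the groups did not overlap (limma, adjusted p = 0.307), and the highest value was again that of NT replicate 1.

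D11 NT replicate 1 lay above all other 5 D11 controls in 55 of the 56 nuclear members, and in 1 of the 13 mitochondrial members. The median difference from the mean of the other 5 over the nuclear members was 0.47 on the log2 scale. It lay below all other 5 in 7 of the 13 mitochondrial members, with a median difference of -0.14 over the 13. Its nuclear members stood 0.39 above the mean of the 6 D11 controls in each of complexes I, III and IV. In the same library nuclear complex V stood 0.37 above that mean, mitochondrial ribosomal proteins 0.38 above, cytosolic ribosomal proteins 0.34 above, and glycolysis -0.09 from it. The cause was not tested.

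The heterozygous clone was compared with TPC1 without knockdown, over 12 control libraries and adjusting for transfection. DICER1 was lower in D11 (log2 change -0.68, limma, adjusted p = 0.00561), and 0 members were called, where 1.02% of 18814 genes were. At an unadjusted p under 0.05 there were 4 of 69 members (5.8%), against 9.85% of all genes tested, and voom called 0. The nuclear median was 0.09, with 50 of 56 positive, and the mitochondrial median 0.05, with 11 of 13 positive. Without D11 NT replicate 1 the nuclear median was 0.01, with 25 of 56 negative. The highest 3 nuclear members were NDUFB7 (0.29), COX5B (0.23) and NDUFC2 (0.23), and the lowest 3 NDUFS1 (-0.12), UQCRC2 (-0.06) and NDUFS4 (-0.04).

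Whether the lines responded differently to siDicer was tested as an interaction over 18 libraries. No member was called, where 0% of 19181 genes were (133 at an unadjusted p under 0.05, and 0 called by voom), and 0 members had an unadjusted p under 0.05 by either tool. The difference, D11 minus TPC1, was positive for all 13 mitochondrial members, with a median of 0.10, and negative for 49 of 56 nuclear members, with a median of -0.10. Without D11 NT replicate 1 these medians were 0.09 and -0.02, and the mitochondrial one was 0.19 without TPC1 siDicer replicate 2, 0.04 without TPC1 siDicer replicate 1 and within 0.07 to 0.13 without any one of the others. The 95% intervals of the difference lay inside a 1.5-fold change for 13 mitochondrial and 52 nuclear members.

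The genes outside the module whose log2 values were most like the summed mitochondrially encoded level over the 18 libraries were MTATP6P1 (Pearson r = 0.80), GCKR (0.78), SIGLEC15 (0.77), MSANTD2 (0.74) and POU3F2 (0.74). MTATP6P1 is a nuclear copy of MT-ATP6 and can share its reads. The points share the 6 groups and the library totals, and the r values are descriptions.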

How the data were processed

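The deposited table held 1 score per gene and library, which the authors made by aligning paired reads of stranded poly-A libraries to GRCh38 with STAR 2.5.3a, counting genes with HTSeq 0.9.1 on Ensembl 90, scaling each library to 20 M aligned reads and rounding to whole numbers. Whether reads were counted by strand is not given in the sources used here. As the values were scaled, no raw-count test was used as the main test. Values were taken as log2(value + 1), genes that reached 10 in 3 or more libraries were kept, and limma 3.58.1 (R 4.3.3; moderated test with a trend) was fitted over all of them with Benjamini-Hochberg adjustment. A fold change is therefore on the log2(value + 1) scale. A gene passed at an adjusted p under 0.05 and was called when its fold change was also at least 1.5. Within each line, siDicer was compared with NT and NC together, and NC with NT. The lines were compared over the controls, adjusting for transfection, and a product term tested whether the siDicer change differed between lines.

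Steps between values gave the worth of 1 read, and 99.6% to 100% of values were whole reads. In TPC1 siDicer replicates 1 and 3 that worth was below 1 (0.8607 and 0.9383). Every value then matches by construction, so their 100% does not show that reads were recovered. To these reads voom was applied as an alternative, calling 719 genes higher and 813 lower in TPC1 and 1061 and 1197 in D11. Limma called 594 and 769 in TPC1 and 969 and 1243 in D11, and 693 and 674 in TPC1 and 1135 and 1061 in D11 with TMM scaling. Depth was 11.3 to 23.2 M reads, and the lowest count of a nuclear member in a library was 259 reads.

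Positions came from GENCODE 44 on GRCh38 and lengths from Ensembl canonical transcripts, while the authors counted on Ensembl 90. Replicates differed beyond sampling noise in all 18 pairs of a group (chi-square per degree of freedom 4.35 to 41.1), so each counted as 1 library. Same-numbered libraries deviated together, at r over 0.1, in 9 of 9 pairs in D11 (r 0.106 to 0.473) and in 7 of 9 in TPC1 (r 0.0861 to 0.509). Pairs with different numbers passed this cutoff in 3 of 18 in each line. Only D11 numbers were read as pairing, from these correlations and not from the labels. All TPC1 pairs were positive too, so leaving them unpaired was a choice that rests on the cutoff. The printed fits have no block, and blocked values are given beside only some of the D11 results. The fits were also run on simulated data, with independent libraries and planted changes larger than that of any member after siDicer. That run therefore does not show how the fits treat changes of the members' size or libraries that deviate together.

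The members and all gene lists were chosen with earlier results of these data known. Named were all mitochondrial members, the 5 highest and 5 lowest nuclear members in each siDicer comparison (3 each way elsewhere), members that passed, and the highest and lowest levels. Alternatives covered scaling, the filter, the pseudocount, the fold minimum, voom, GC content and length, the replicate block, the control group, all 18 libraries in 1 fit, groups from the titles, and each library left out.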

Additional observations from a re-analysis of the deposited data

Results flagged for a closer look

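A sample far from the other 5 of its control group was found in 31 of 158 groups of 6 control libraries tested, by a Dixon test that flags about 1 in 20 groups by chance. The groups are not independent, since 25 of the 31 were due to D11 NT replicate 1.

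In D11 NT replicate 1 the nuclear share of all values was 0.647%, the ratio of MT-ND4L to MT-ND4 was 0.173 and that of MT-ND6 to MT-ND5 was 0.373. Of 56 nuclear members, 55 were above the other 5 D11 controls in that library. Complex I values far enough above them to pass the Dixon test were 1371 for NDUFA1, 2229 for NDUFA13, 1535 for NDUFA6, 846 for NDUFA7, 2166 for NDUFA9, 1874 for NDUFB10, 1544 for NDUFB4, 1213 for NDUFB6, 1431 for NDUFB7, 2988 for NDUFB8, 819 for NDUFC1, 2023 for NDUFS3, 853 for NDUFS4, 2194 for NDUFS5 and 2976 for NDUFV1. In complex III they were 6198 for CYC1, 1654 for UQCR10, 5719 for UQCRB and 3798 for UQCRH, and in complex IV 2806 for COX6A1, 3375 for COX6C and 2257 for COX7B.

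In TPC1 controls, NT replicate 2 was highest for FN1 (220137) and lowest for NDUFA9 (1489), UQCR10 (1066) and UQCRQ (1204). NC replicate 3 was lowest for NDUFA1 (963) and NC replicate 1 for NDUFA11 (1228).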

How the results depend on the processing

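No member was called in TPC1 under any setting but the one without a fold minimum (10 members), and in D11 7 were called without the fold minimum and 4 against NT alone. The count of nuclear members lower in TPC1, 10, was 6 with TMM scaling, 5 with RLE scaling, 4 with no filter, 3 against NT alone, 3 against NC alone, 5 in a fit of all 18 libraries and 0 with groups from the titles. In D11 the count of 7 was 16 against NT alone, 21 in the fit of all 18 libraries and 0 with groups from the titles. The cause of these differences was not tested. The share of all genes that passed as lower under each of these settings was not compared, nor was the share called in D11 against NT alone. The counts therefore do not show whether the members moved more than the whole table. The nuclear median in TPC1 was -0.0814 with TMM, -0.0761 with RLE and -0.0148 with groups from the titles, and in D11 0.00043 with groups from the titles. The mitochondrial median was 0.0589 in TPC1 with GC content and length trends removed and -0.0472 in D11 with groups from the titles.

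With groups from the titles, a change that had passed turned its sign in TPC1 for COX7A2 (0.0147), NDUFA8 (0.0039), MRPS33 (0.0288), MRPS2 (0.0323), MTERF3 (0.0756), PGAM1 (0.174), UQCC3 (0.0431) and MRPS17 (0.132), and in D11 for NDUFV1 (0.0140), FN1 (-0.0713) and PGAM1 (0.141). That setting mixes groups by construction where titles and descriptions differ.

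With 1 library left out, the TPC1 lower count ranged from 0 to 14, the D11 lower count from 1 to 10, the D11 count called from 0 to 2 (COX8A and NDUFA8), and the mitochondrial median of the interaction from 0.0449 to 0.189. With the replicate number as a block, 12 nuclear members were lower in TPC1 and 10 in D11, with 0 called in both. Shares of all genes that passed as lower in these fits were not compared. The TPC1 numbers were not taken to pair libraries. Over 176 genes by comparison, other settings kept the side of the adjusted p threshold in 2483 of 2636 cases and leaving out a library in 1466 of 1584. A turn of sign was counted against this only for changes that had passed. For the others the direction was not compared.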
